A study of Homo sapiens with 14 samples.

Results

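The genes followed here are those measured in both human leukaemia lines of a study of TETi76, a small-molecule inhibitor of TET dioxygenases, and the question was which of them responded to the compound in the same direction, in opposite directions, or in a single line. Gene symbols present in both deposited tables were taken, 19087 of the 26254 symbols found in either table, and 9742 of them were expressed highly enough to be tested in both lines. The response in SIGM5 was the difference between 2 libraries from cells treated with 12.5 µM TETi76 for 24 h and 2 libraries from cells given DMSO, the vehicle. The response in K01 was the same contrast at the same dose and time, again with 2 libraries a group. SIGM5 is an acute myeloid leukaemia line with monocytic features. K562 is an erythroleukaemia line, and K01 is the isogenic K562 line that the series text lists as TET2+/+. These 8 libraries are part of 14 in the series, and 4 further K01 libraries, 2 treated with 12.5 µM TETi76 plus 100 µM ascorbate and 2 with 100 µM ascorbate alone, served as a second K01 contrast. The K01 groups thus carry wild-type TET2 as labelled, whereas the labels give no TET genotype for SIGM5. SIGM5 was grown in IMDM and K562 in RPMI, and the lines came in separate tables with different units, so line, medium and table cannot be told apart in any difference between the responses.

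TET dioxygenases oxidise methylated cytosine in DNA, using oxoglutarate and ferrous iron, and ascorbate helps to keep the iron reduced. Many of the genes described below belong to 3 well-studied programmes. NRF2 is a transcription factor that turns on antioxidant and detoxification genes when cells meet oxidants or electrophiles, and it binds the antioxidant response element. ATF4 is the main effector of the integrated stress response and raises amino acid synthesis, transport and tRNA charging when amino acids run short or the endoplasmic reticulum is stressed. The sterol regulatory element-binding proteins drive the genes of cholesterol and fatty acid synthesis through the sterol regulatory element.

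Promoter stretches of genes from the main response patterns are shown first, as background to the gene lists of these programmes. They were read from RefSeq promoters of build GRCh38.p14, each spanning 250 bases before to 50 bases after the gene's start, in which 73 of the 87 genes named by rule had an entry. Capitals mark the match to a searched motif, and the sequence around it is in lower case. The first pair are genes that fell in both lines, FADS2 (chr11:61815963-61816011, plus strand) and FDPS (chr1:155308706-155308754, plus strand), with a match to the sterol element letters TCACNCNAC that ends 212 and 132 bases before the start.
FADS2: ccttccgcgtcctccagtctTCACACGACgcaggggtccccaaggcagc
FDPS: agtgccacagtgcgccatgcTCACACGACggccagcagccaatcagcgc
The next pair hold the antioxidant element core TGACNNNGC. CTSD (chr11:1764094-1764142, minus strand) rose in both lines and MT2A (chr16:56608460-56608508, plus strand) moved in opposite directions. The core occurred in 15 of 60 promoters of genes higher in both (25%), in 5 of 17 and 2 of 8 of the 2 opposed classes (29.4% and 25%), in 15.7% of promoters of genes tested in both and in 13.6% of all RefSeq promoters.
CTSD: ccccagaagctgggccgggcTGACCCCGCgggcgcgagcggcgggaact
MT2A: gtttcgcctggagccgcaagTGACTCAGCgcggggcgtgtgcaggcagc
The last set hold the C/EBP-ATF element letters TGATGNAA, printed as the reverse complement where the match lay on the other strand. CHAC1 (chr15:40953242-40953289, plus strand) fell in K01 alone with a tested difference, ASNS (chr7:97872449-97872496, minus strand) fell in both lines, and HERPUD1 (chr16:56931946-56931993, plus strand) was higher with TETi76 in SIGM5 and lower in K01.
CHAC1: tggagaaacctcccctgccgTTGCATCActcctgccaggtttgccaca
ASNS: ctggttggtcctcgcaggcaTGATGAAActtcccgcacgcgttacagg
HERPUD1: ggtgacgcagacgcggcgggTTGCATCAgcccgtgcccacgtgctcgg
A match is a description of the letters in this window and not a shown binding site. The lower-case letters after the match also hold the E2F letters GCGGGAA in the CTSD stretch and, on the other strand, in the ASNS stretch.

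Many more genes were called with TETi76 in K01 than in SIGM5, and most genes called in both changed in the same direction. The tests differ, since SIGM5 rests on counts of 4 libraries and K01 takes its spread from 10 libraries of FPKM. A K562 fit of 4 libraries called 2645 genes in K01. Units and tests still differed between the lines, so the numbers called are not a measure of how many genes changed in each line. A gene was called when its Benjamini-Hochberg adjusted p, over all genes tested in its line, was under 0.05, with edgeR's quasi-likelihood test on the SIGM5 counts and limma on log2(FPKM + 1) for K01. In SIGM5, 468 of 11340 genes were called (4.13%), 293 higher (2.58%) and 175 lower (1.54%). In K01, 2921 of 12534 genes were called (23.3%), 1204 higher (9.61%) and 1717 lower (13.7%), although quantile normalization gave 1428 higher and 1385 lower. Among the 9742 genes tested in both, 320 were called in SIGM5, 2442 in K01 and 157 in both. Of these 157 genes, 75 were higher with TETi76 in both lines, 55 were lower in both, 18 were higher in SIGM5 and lower in K01, and 9 were lower in SIGM5 and higher in K01. The 130 genes with a shared direction made up 40.6% of the genes called in SIGM5 and 5.32% of those called in K01, and the 27 opposed genes made up 8.44% and 1.11%.

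The median size of a called change was 0.59 on the log2 scale in SIGM5 and 0.57 in K01, and the median standard error over the genes tested in both was 0.13 in SIGM5 and 0.15 in K01. The 2 responses had the same sign at 5846 of the 9742 genes (60.0%), at 237 of the 320 genes called in SIGM5 (74.1%) and at 1694 of the 2442 called in K01 (69.4%). Across genes, which are not independent replicates, Pearson's r of the responses was 0.27 and Spearman's rho 0.27, from contrasts that share no library. The difference of the responses, SIGM5 minus K01, was itself tested with the standard errors of both fits, and it was called at 1172 genes (12%), with the SIGM5 response the higher at 694 (7.12%) and the K01 response the higher at 478 (4.91%).

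**Figure D1:**
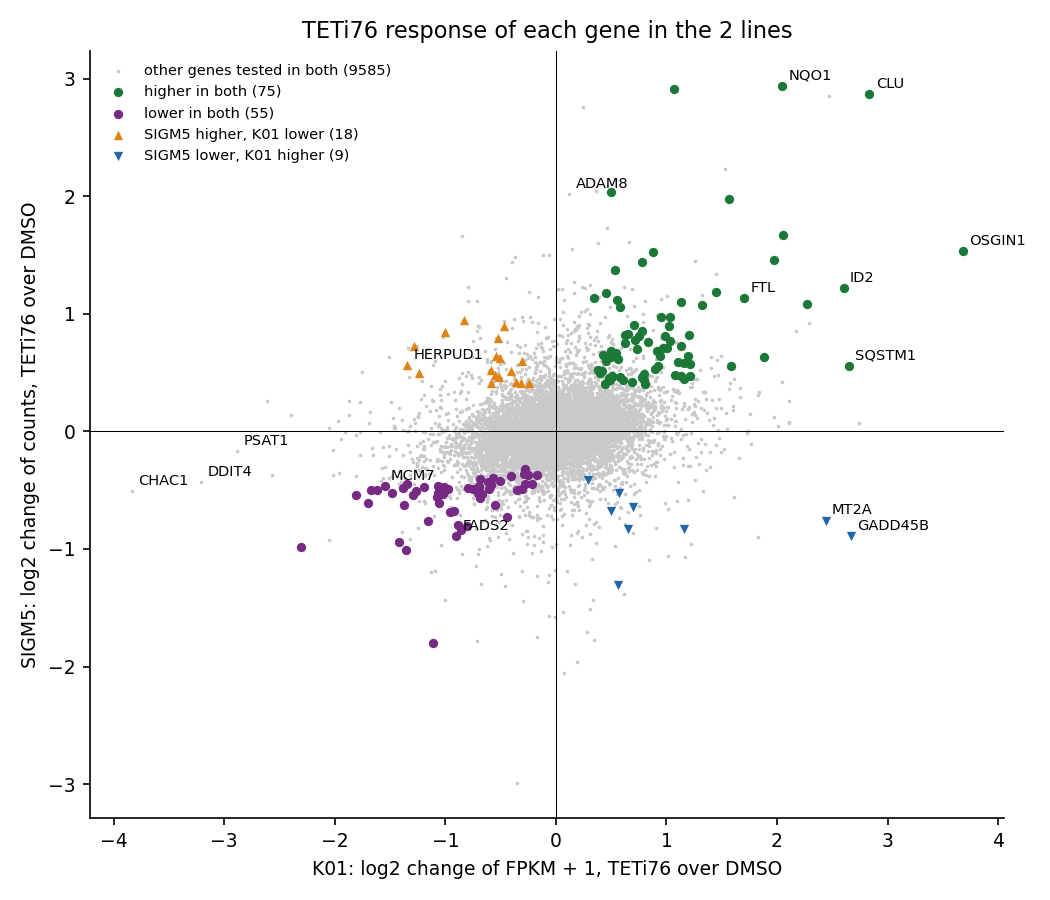
Response to TETi76 in SIGM5 (vertical axis, log2 fold change of counts) against the response in K01 (horizontal axis, difference in log2(FPKM + 1)), TETi76 over DMSO, each point a gene of the 9742 tested in both lines. The 75 genes higher in both (green) and the 55 lower in both (purple) lie in the upper right and lower left, and the 18 and 9 opposed genes (orange and blue triangles) in the other corners, among other genes in grey.

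The 2 libraries of each group are not stated to be separate cultures, so p-values measure the spread between these libraries, which may be technical. Counts of called genes moved most with the SIGM5 libraries. Leaving out a SIGM5 library left 28 genes with a shared direction without TETi76 replicate 1, 49 without TETi76 replicate 2, 230 without DMSO replicate 1 and 297 without DMSO replicate 2, against 94 to 103 without a K01 library. The opposed genes numbered 3, 7, 47 and 64 in the same order of SIGM5 libraries and 12 to 15 without a K01 library. The SIGM5 libraries held 22897513 to 23639198 counts with TETi76 and 18893636 to 21569319 with DMSO, whereas the K562 table gives FPKM and no depth. The lines matched their names, with 27 of 28 myelomonocytic markers at a mean of at least 1 CPM in SIGM5 in both groups and CSF2RA listed at 0. In K01, 25 of 28 erythroid markers were at a mean of at least 1 FPKM in both groups. Levels are compared within a line only, and changes of low genes are understated on the log2(FPKM + 1) scale.

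Of the NRF2 and redox list, 10 of the 24 genes tested in both lines rose in both. Of its members, 13 of 25 tested passed in SIGM5, all higher with TETi76, and 19 of 30 rose and 3 fell in K01. The median response was 0.46 in SIGM5 and 0.88 in K01 on the log2 scale over the 24 tested in both, against medians of -0.00 and -0.01 over all genes tested in both. The responses had the same sign at 15 of the 24, and the difference was called at 15, with the SIGM5 response the higher at 7 and the K01 response at 8. The 10 that rose in both lines included NQO1, GCLM, TXNRD1, SRXN1, OSGIN1, ME1, AKR1C1, SQSTM1 and GSR. ME1 among them passed the SIGM5 filter through the TETi76 libraries alone, and with DESeq2 in SIGM5 9 members rose in both lines. The SIGM5 count rests on both TETi76 libraries, since 5 members rose and 4 rose in both lines when either of the TETi76 libraries was left out.

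NQO1, a quinone reductase and a standard readout of NRF2 activity, had the largest SIGM5 change among the genes higher in both. It stood at 55.7 and 58.4 CPM with TETi76, against 7.62 and 7.25 CPM with DMSO, in SIGM5. In K01 it stood at 114 and 114 FPKM with TETi76, against 27.8 and 26.0 FPKM with DMSO. Every treated library was far above every vehicle library in both lines. The change was 2.94 ± 0.14 (SE) in SIGM5 (edgeR adjusted p = 6.44e-12) and 2.04 ± 0.09 in K01 (limma adjusted p = 1.43e-06), larger in SIGM5 by 0.89 ± 0.17 (adjusted p = 0.000427). NQO1 has no match to the antioxidant element letters in the promoter window used here.

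Other enzymes of the list also rose in both lines. GSR, glutathione reductase, had 195 and 205 CPM with TETi76, against 109.6 and 118 CPM with DMSO, in SIGM5, and 91.7 and 96.3 FPKM against 47.8 and 45.8 FPKM in K01. Its change was 0.81 ± 0.11 in SIGM5 and 0.99 ± 0.08 in K01, and the difference did not pass the test (-0.18 ± 0.13, adjusted p = 0.434). AKR1C1, an aldo-keto reductase with close paralogues whose reads may be shared, had 6.23 and 5.08 CPM against 1.07 and 1.77 CPM in SIGM5 and 98.6 and 112 FPKM against 33.2 and 36.3 FPKM in K01. ME1, malic enzyme, was near the bottom of the SIGM5 range at 0.962 and 0.608 CPM with TETi76, against 0.0537 and 0.140 CPM with DMSO. Its K01 libraries held 16.6 and 16.3 FPKM with TETi76, against 6.14 and 8.64 FPKM with DMSO. ME1 passed the SIGM5 filter through the TETi76 libraries alone and so had to differ. The groups of GSR, AKR1C1 and ME1 did not overlap in either line, but the SIGM5 call of ME1 was lost without a library (highest adjusted p = 0.636).

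Other members rose in both lines by different amounts. SQSTM1, an autophagy receptor that also restrains the NRF2 repressor KEAP1, had 133 and 142 CPM with TETi76, against 95.4 and 92.0 CPM with DMSO, in SIGM5. In K01 it had 359 and 356 FPKM against 61.1 and 51.7 FPKM, a change of 2.65 ± 0.07 against 0.55 ± 0.11 in SIGM5. The response was larger in K01 (difference -2.09 ± 0.13, adjusted p = 5.71e-13), as it was for OSGIN1, an oxidative stress-induced growth inhibitor (difference -2.15 ± 0.37, adjusted p = 0.000194). OSGIN1 had 2.84 and 3.35 CPM against 0.805 and 1.30 CPM in SIGM5 and 46.7 and 49.7 FPKM against 3.11 and 2.59 FPKM in K01. The SIGM5 calls of SQSTM1 and OSGIN1 were lost without a library, at a highest adjusted p of 0.147 and 0.148.

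Within the same list, PGD and TALDO1 of the pentose phosphate pathway had higher responses in SIGM5 than in K01. PGD, of the oxidative branch, rose by 0.77 ± 0.10 in SIGM5 (adjusted p = 4.24e-05) and stood at -0.03 ± 0.06 in K01 (adjusted p = 0.748). TALDO1, transaldolase of the other branch, stood at 0.17 ± 0.10 in SIGM5 and fell in K01 (-0.28 ± 0.07). Both differences were called, with the SIGM5 response the higher. The reverse held for GCLC, the catalytic subunit of glutathione synthesis, and for the peroxide-handling PRDX1 and TXN. GCLC stood at 0.33 ± 0.13 in SIGM5 (adjusted p = 0.179) and rose by 1.33 ± 0.13 in K01. PRDX1 stood at -0.00 ± 0.11 in SIGM5 and rose by 0.98 ± 0.04 in K01, with a difference of -0.98 ± 0.12 (adjusted p = 2.41e-06). SLC7A11, the cystine importer that is a target of both NRF2 and ATF4, stood at 0.31 ± 0.15 in SIGM5 (adjusted p = 0.338) and fell in K01 (-1.04 ± 0.13, adjusted p = 0.000688), with a called difference (1.35 ± 0.20, adjusted p = 5.80e-05).

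Both ferritin chains, which store iron and are NRF2 targets, rose in both lines. FTL, the light chain, had 3340.0 and 3343 CPM with TETi76, against 1579 and 1465 CPM with DMSO, in SIGM5, and 9313 and 9134 FPKM against 2887 and 2769 FPKM in K01. FTH1, the heavy chain, had 488 and 499 CPM against 243 and 218 CPM in SIGM5 and 2193 and 2188 FPKM against 960.3 and 1037 FPKM in K01. The treated and vehicle libraries were fully separated for both chains. FTH1 changed by 1.10 ± 0.10 in SIGM5 and 1.13 ± 0.05 in K01, a difference of -0.04 ± 0.11 that did not pass the test (adjusted p = 0.882). FTL changed more in K01, by 1.71 ± 0.04 against 1.13 ± 0.09 in SIGM5 (difference -0.57 ± 0.10, adjusted p = 0.000173). Ferritin has many processed pseudogenes, and how the authors' counting treated their reads is not given in the sources used here. The other members of the iron list were not called in SIGM5, where 2 of 14 rose, and 4 rose and 2 fell in K01. They include TFRC, the transferrin receptor, at -0.17 ± 0.10 in SIGM5 (adjusted p = 0.395) and higher by 0.21 ± 0.06 in K01.

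Genes of other groups also rose in both lines. ID2, an inhibitor of basic helix-loop-helix factors, had 13.9 and 13.9 CPM with TETi76, against 5.31 and 6.60 CPM with DMSO, in SIGM5, and 23.4 and 22.3 FPKM against 3.93 and 2.11 FPKM in K01. Its rise was larger in K01 (2.60 ± 0.32) than in SIGM5 (1.22 ± 0.17), although that difference (-1.38 ± 0.36, adjusted p = 0.02) was lost without a library (highest adjusted p = 0.136). SGK1, a serum- and glucocorticoid-induced kinase, rose by 1.67 ± 0.19 in SIGM5 and 2.05 ± 0.20 in K01. IL13RA1, a receptor subunit for interleukin-13 and interleukin-4, rose by 0.82 ± 0.12 and 1.21 ± 0.12. TIMP1, an inhibitor of metalloproteinases, rose by 0.85 ± 0.16 and 0.77 ± 0.05, and PDLIM7, an actin-associated adaptor, by 0.76 ± 0.14 and 0.84 ± 0.15. The SIGM5 calls of TIMP1 and PDLIM7 were lost without a library, at a highest adjusted p of 0.0706 and 0.104. Over the 75 genes higher in both, the responses spanned 0.40 to 2.94 in SIGM5 and 0.34 to 3.68 in K01, 46 were larger in K01, and 13 reached a doubling (1 on the log2 scale) in both lines.

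The lists of immediate-early genes, of inflammatory genes and of autophagy and lysosomal genes each had a few members that rose in both lines. Of the immediate-early and MAPK genes, 7 of 31 passed in SIGM5, all higher, 15 of 26 rose and 1 fell in K01, and 4 rose in both. EGR1, a zinc-finger factor induced by growth signals, rose by 0.70 ± 0.15 in SIGM5 and 0.73 ± 0.09 in K01, and FOS, a subunit of AP-1, by 0.59 ± 0.14 and 1.11 ± 0.16. The SPRY4 feedback inhibitor of MAPK signalling rose by 0.90 ± 0.13 and 0.71 ± 0.12, and PHLDA1 by 1.44 ± 0.23 and 0.78 ± 0.23. In K01, PHLDA1 had 1.525 and 2.544 FPKM with TETi76, against 0.818 and 0.669 FPKM with DMSO. Among the K01 libraries, only those given TETi76 reached the filter of 1 FPKM for PHLDA1, so its K01 rise is no separate evidence. A stricter K562 filter left 3 genes of the list higher in both. Other AP-1 subunits rose in K01 with a called difference. JUN stood at -0.07 ± 0.12 in SIGM5 and rose by 1.32 ± 0.11 in K01, and FOSL2 at 0.05 ± 0.11 and rose by 2.01 ± 0.25. Without either SIGM5 TETi76 library, 3 members rose in SIGM5 and 2 in both lines. The SIGM5 calls of EGR1 and FOS were lost without a library (highest adjusted p = 0.152 and 0.214), as was the K01 call of PHLDA1 (0.204).

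Of the NF-kB and inflammation list, 7 of 17 passed in SIGM5, all higher, while 4 of 13 rose and 1 fell in K01. The 3 that rose in both were CCL2, ICAM1 and PLAUR. CCL2, a monocyte-attracting chemokine, had 18.6 and 21.1 CPM with TETi76, against 5.96 and 8.42 CPM with DMSO, in SIGM5. In K01 it had 2.42 and 3.51 FPKM with TETi76 and was listed at 0 in both DMSO libraries, so no fold is given there. It passed the K01 filter through the 2 TETi76 libraries alone and so had to differ, and without either of them it was not tested and 1 gene of the list rose in both lines. ICAM1, an adhesion molecule, had 5.39 and 6.52 CPM against 1.45 and 1.44 CPM in SIGM5 and 18.9 and 18.9 FPKM against 13.4 and 12.8 FPKM in K01. Its libraries separated in both lines, and the rise was larger in SIGM5 (2.04 ± 0.26) than in K01 (0.50 ± 0.13; difference 1.54 ± 0.29, adjusted p = 0.000518), where leaving out a library lost the call (highest adjusted p = 0.109). PLAUR, the urokinase receptor, rose by 0.57 ± 0.11 in SIGM5 and 1.21 ± 0.15 in K01, with the SIGM5 call lost without a library (highest adjusted p = 0.207). Without a SIGM5 library 4 to 8 members of the list rose in SIGM5, and without a K01 library 2 or 3 rose in K01.

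Genes of the autophagy and lysosome list, here the lysosomal list, rose in 4 of 32 cases in SIGM5 and 15 of 32 in K01, where 4 fell. Over all genes tested, 2.58% were called higher in SIGM5 and 9.61% in K01. SQSTM1, described above with the NRF2 list, is also in this list and among those that rose in both lines. CTSD, a lysosomal protease, had 218 and 228 CPM with TETi76, against 134 and 118 CPM with DMSO, in SIGM5, and 122 and 117 FPKM against 74.4 and 77.3 FPKM in K01. It rose by 0.83 ± 0.11 and 0.65 ± 0.06, and its call held in both lines without each library. ATP6V1B2, a subunit of the proton pump, rose by 0.43 ± 0.10 in SIGM5, a call lost without a library (highest adjusted p = 0.278), and by 0.49 ± 0.07 in K01. TFEB, a master regulator of lysosomal genes, rose in SIGM5 (0.69 ± 0.18) and stood at 0.29 ± 0.30 in K01 (adjusted p = 0.536), with no call for the difference. BTG2, an antiproliferative p53 target, rose in both lines, by 0.73 ± 0.12 and 1.14 ± 0.12, and PKM, the pyruvate kinase of glycolysis, by 0.47 ± 0.09 and 1.14 ± 0.05. Without either SIGM5 TETi76 library, 1 gene of the lysosomal list rose in SIGM5, and the SIGM5 call of PKM was lost (highest adjusted p = 0.0998).

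**Figure D2:**
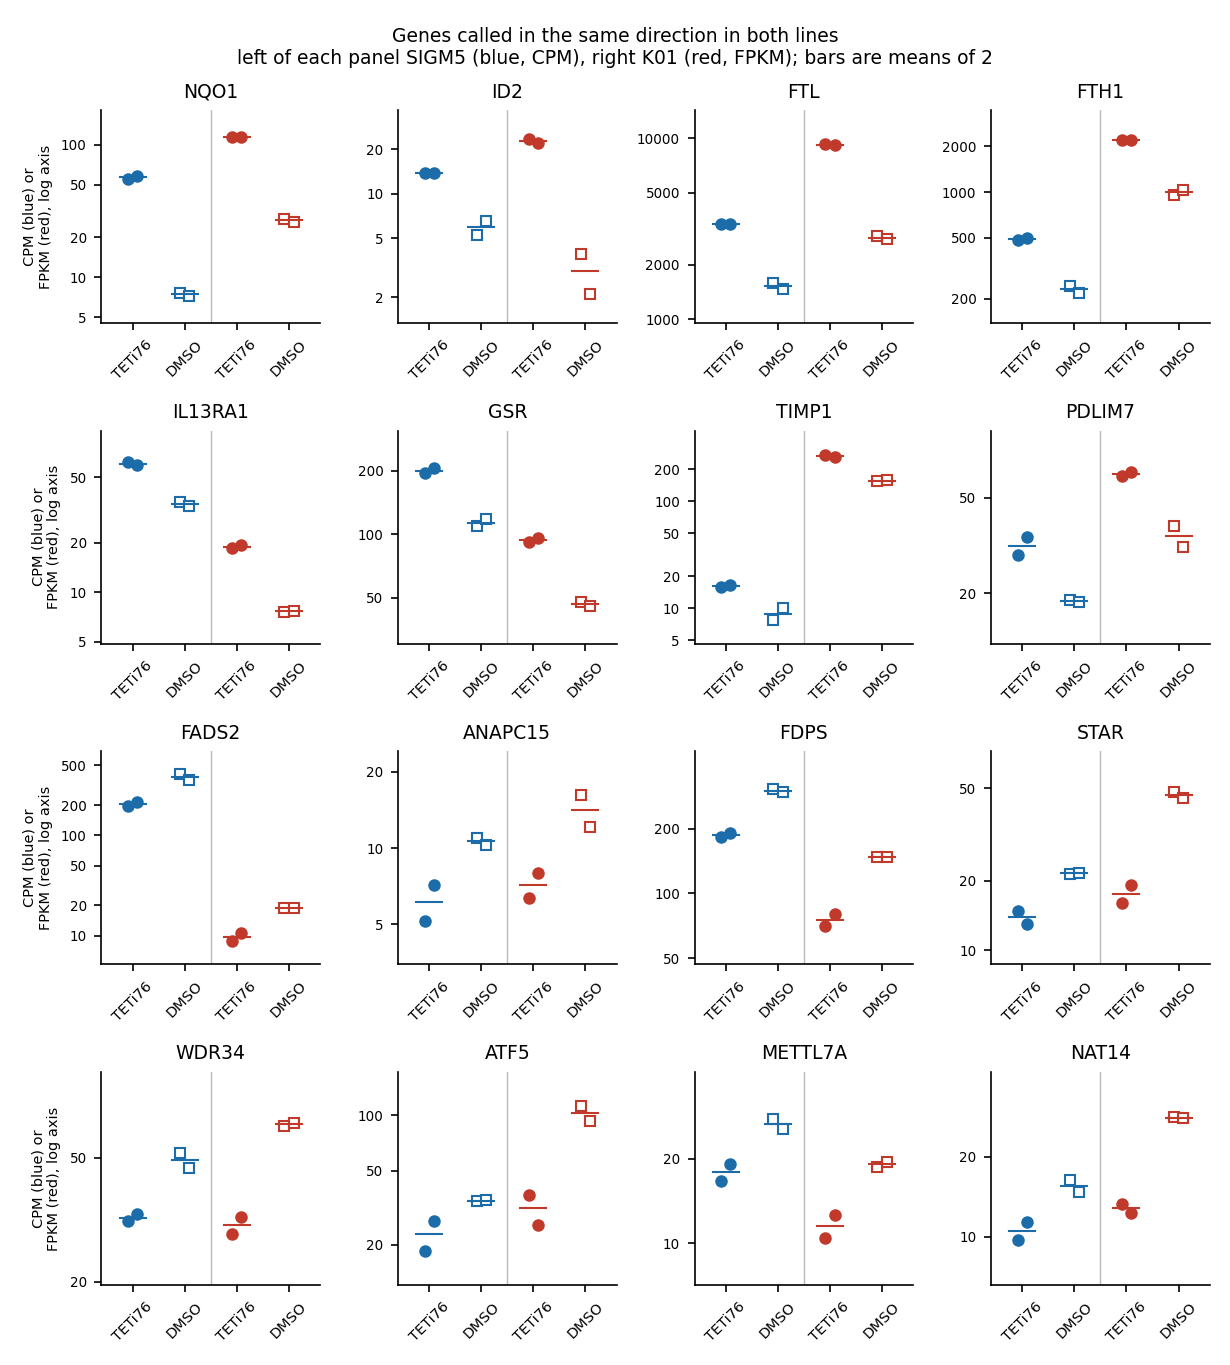
Levels on log axes of the 16 genes named by rule that changed in the same direction in both lines, CPM in SIGM5 (blue, left of each panel) and FPKM in K01 (red, right), with each TETi76 library as a filled circle, each DMSO library as an open square and bars at the mean of 2. The 8 genes of the upper rows, NQO1 to PDLIM7, are higher with TETi76 in every library, and the 8 of the lower rows, FADS2 to NAT14, are lower.

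Several cholesterol and fatty acid synthesis genes fell in both lines. Of the cholesterol list, 4 of 24 passed in SIGM5, all lower, and 2 of 25 rose and 16 fell in K01. All 4 that fell in SIGM5, FDPS, LSS, ACAT2 and FDFT1, also fell in K01. The median response over the 24 genes tested in both was -0.27 in SIGM5 and -0.41 in K01, 21 of the 24 had the same sign, and the difference between the lines was called at 2. One of them, PMVK of the mevalonate pathway, rose in K01 and was not called in SIGM5. Of 12 fatty acid synthesis genes, 3 fell and 1 rose in SIGM5, and 8 fell in K01, with FADS2, SCD and FADS1 falling in both. The sterol element letters occurred in 2 of the 47 promoters of genes lower in both (4.26%), FADS2 and FDPS, against 2.26% of the 8173 promoters of genes tested in both and 2.57% of all 27305 RefSeq promoters.

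FADS2, a desaturase that makes polyunsaturated fatty acids, fell in both lines. It had 197 and 216 CPM with TETi76, against 408 and 358 CPM with DMSO, in SIGM5, and 8.77 and 10.7 FPKM against 19 and 18.9 FPKM in K01. The libraries separated in both lines. The change was -0.89 ± 0.11 in SIGM5 (adjusted p = 1.17e-05) and -0.90 ± 0.14 in K01 (adjusted p = 0.00181), a difference of 0.01 ± 0.17 that did not pass the test (adjusted p = 0.979). FDPS, which makes farnesyl diphosphate in the mevalonate pathway, had 183 and 191 CPM against 305 and 298 CPM in SIGM5 and 70.5 and 80.7 FPKM against 148 and 147 FPKM in K01. It fell by 0.69 ± 0.10 in SIGM5 and by 0.96 ± 0.11 in K01. Among the 18 named genes that were lower in both, FADS2 and FDPS were the 2 whose calls held in both lines without each library.

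The other lipid genes kept their K01 call more often than their SIGM5 call. SCD, the desaturase of monounsaturated fatty acids, had 430.3 and 422 CPM with TETi76, against 632 and 600.4 CPM with DMSO, in SIGM5, and 102 and 99.8 FPKM against 203 and 206 FPKM in K01. FADS1, the partner desaturase of FADS2, had 99.5 and 99.2 CPM against 141 and 139.5 CPM in SIGM5 and 67.4 and 62.9 FPKM against 198 and 205 FPKM in K01. Both genes separated fully by treatment, and both fell more in K01, with a difference of 0.48 ± 0.11 for SCD (adjusted p = 0.00303) and 1.12 ± 0.12 for FADS1 (adjusted p = 8.11e-08). LSS, which closes the sterol ring, fell to 98.4 and 103 CPM, against 146 and 132 CPM with DMSO, in SIGM5, and to 21.0 and 19.8 FPKM, against 35.6 and 31.9 FPKM, in K01. The SIGM5 call was lost without a library for SCD (highest adjusted p = 0.0808), FADS1 (0.289), LSS (0.475), ACAT2 (0.5) and FDFT1 (0.749), and the K01 call for ACAT2 (0.0648) and FDFT1 (0.0651). Without SIGM5 libraries the number of cholesterol genes lower in SIGM5 ran from 1, without either TETi76 library, to 10, without DMSO replicate 2, and without K01 libraries the number lower in K01 ran from 10 to 12.

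STAR, IDH2 and MCM7 were also among the genes lower in both. STAR, which carries cholesterol into mitochondria, had 14.8 and 13 CPM with TETi76, against 21.4 and 21.6 CPM with DMSO, in SIGM5, and 16.0 and 19.1 FPKM against 48.4 and 45.4 FPKM in K01, with the larger fall in K01 (difference 0.75 ± 0.18, adjusted p = 0.00423). IDH2, the mitochondrial isocitrate dehydrogenase that makes oxoglutarate, fell by 0.49 ± 0.11 in SIGM5 and by 1.03 ± 0.08 in K01. Its cytosolic counterpart IDH1 stood at -0.01 ± 0.11 in SIGM5 (adjusted p = 0.991) and at -1.77 ± 0.09 in K01 (adjusted p = 1.82e-06), with a called difference (1.77 ± 0.14, adjusted p = 1.22e-10). MCM7, a subunit of the replicative helicase, had 369.6 and 400.4 CPM against 561 and 502 CPM in SIGM5 and 72.0 and 73.6 FPKM against 216 and 214 FPKM in K01. Its groups separated in both lines and it fell more in K01 (difference 1.08 ± 0.12, adjusted p = 5.14e-08). Without a library the SIGM5 calls were lost, at a highest adjusted p of 0.249 for STAR, 0.475 for IDH2 and 0.381 for MCM7, as were the differences of STAR (0.103) and IDH2 (0.14).

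The remaining named genes that were lower in both were ANAPC15, WDR34, METTL7A, NAT14, NDUFB8, DDB2, ASNS and ATF5. ANAPC15, a subunit of the anaphase-promoting complex, changed by -0.80 ± 0.19 in SIGM5 and -0.89 ± 0.26 in K01. WDR34, a chain of the ciliary motor dynein, changed by -0.61 ± 0.12 and -1.05 ± 0.08. METTL7A, a methyltransferase-like protein, changed by -0.57 ± 0.14 and -0.69 ± 0.14, and NAT14 by -0.56 ± 0.16 and -1.07 ± 0.15. NDUFB8, a subunit of respiratory complex I, changed by -0.38 ± 0.11 and -0.40 ± 0.08, and DDB2, a DNA damage sensor and p53 target, by -0.40 ± 0.11 and -0.68 ± 0.22. The SIGM5 call of each of these 6 was lost without a library, with a highest adjusted p of 0.235 for WDR34 to 0.836 for NDUFB8, and the K01 call was lost for ANAPC15 (0.198), METTL7A (0.0577) and DDB2 (0.243). Over the 55 genes lower in both, the responses spanned -1.80 to -0.32 in SIGM5 and -2.31 to -0.18 in K01, and 44 were larger in size in K01. Of the 130 genes with a shared direction, the difference of the responses was called at 34, with the larger response in K01 at 29 and in SIGM5 at 5.

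The 18 genes that rose in SIGM5 and fell in K01 were ABCC4, ARRDC4, B4GALT3, BLVRB, FERMT3, FNDC3B, HERPUD1, HIST1H1C, HIST1H2BK, PRKCB, RBM47, RNF24, SLC43A3, SLC7A5, STOM, THEMIS2, TNFAIP3 and UBE2J1. The difference was called at all 18, which follows from 2 calls of opposite sign and is no separate evidence, and the SIGM5 rises were modest, from 0.41 to 0.95 on the log2 scale, against falls of -1.35 to -0.24 in K01. HERPUD1, a membrane protein of endoplasmic reticulum-associated degradation, had 79.3 and 82.5 CPM with TETi76, against 51.9 and 57.8 CPM with DMSO, in SIGM5. In K01 it had 14.1 and 12.7 FPKM with TETi76, against 40.0 and 31.6 FPKM with DMSO. The treated libraries lay above the vehicle libraries in SIGM5 and below them in K01, with a difference of 1.91 ± 0.16 (adjusted p = 4.90e-09). SLC7A5, the large neutral amino acid transporter, had 489 and 494 CPM against 379 and 316 CPM in SIGM5 and 57.3 and 51.5 FPKM against 131 and 127 FPKM in K01. It too separated in both lines in opposite directions, with a difference of 1.74 ± 0.13 (adjusted p = 3.88e-11). Both differences held without each library, but the SIGM5 calls did not (highest adjusted p = 0.146 for HERPUD1 and 0.173 for SLC7A5).

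FERMT3, or kindlin-3, which activates integrins in blood cells, was the 1 named gene of this pattern whose calls held in both lines without each library. It had 122 and 129.9 CPM with TETi76, against 73.7 and 61.8 CPM with DMSO, in SIGM5, and 83.4 and 84.4 FPKM against 118 and 114 FPKM in K01, a difference of 1.36 ± 0.13 (adjusted p = 8.12e-09). BLVRB, biliverdin reductase B of the redox list and abundant in erythroid cells, had 16.7 and 15.9 CPM against 9.61 and 11.2 CPM in SIGM5 and 253 and 252 FPKM against 389 and 346 FPKM in K01. STOM, the membrane protein stomatin, had 22.5 and 18.2 CPM against 12 and 14.4 CPM in SIGM5 and 27.1 and 30.5 FPKM against 42.2 and 40.0 FPKM in K01. In all 3 genes the groups separated in both lines. HIST1H2BK, a histone H2B gene with near-identical copies whose reads may be shared, changed by 0.80 ± 0.14 in SIGM5 and -0.52 ± 0.04 in K01. TNFAIP3, the A20 inhibitor of NF-kB signalling, rose by 0.53 ± 0.11 in SIGM5 and fell in K01 (-0.59 ± 0.15). SIGM5 calls were lost without a library for BLVRB (highest adjusted p = 0.38), STOM (0.643), HIST1H2BK (0.0613) and TNFAIP3 (0.186), and K01 calls for STOM (0.0577) and TNFAIP3 (0.11).

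The 9 genes that fell in SIGM5 and rose in K01 were BMF, CCNB1, DOCK6, FN1, GADD45B, GNA11, MT2A, NR2F2 and TUBB3. GADD45B, a growth arrest and stress gene, had the widest gap of any named gene. It stood at 5.90 and 7.21 CPM with TETi76, against 10.6 and 13.6 CPM with DMSO, in SIGM5, and at 14.4 and 17.2 FPKM against 1.33 and 1.98 FPKM in K01. Treated libraries were the lower in SIGM5 and the higher by far in K01, with a difference of -3.56 ± 0.32 (adjusted p = 3.39e-07), and the SIGM5 call was lost without a library (highest adjusted p = 0.268). MT2A, a metallothionein that binds zinc and copper and belongs to a family of close copies, had 37.3 and 36.8 CPM against 59.9 and 65.5 CPM in SIGM5 and 66.4 and 59.4 FPKM against 11.5 and 10.1 FPKM in K01. Its libraries separated in both lines, the difference was -3.20 ± 0.21 (adjusted p = 3.65e-09), and both calls held without each library.

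Of the metallothionein list, 5 of 7 passed in SIGM5, all lower, and 1 of 4 passed in K01, MT2A, which rose. The fall in SIGM5 was -0.98 ± 0.11 for MT1G, -0.72 ± 0.13 for MT1F, -0.52 ± 0.12 for MT1E and -1.54 ± 0.14 for MT1H. The last was listed at 0 in all 4 K01 libraries. FN1, the matrix protein fibronectin, had 22.4 and 22.7 CPM with TETi76, against 33.3 and 31.6 CPM with DMSO, in SIGM5, and 15.9 and 15.7 FPKM against 10.2 and 10.5 FPKM in K01. NR2F2, the orphan nuclear receptor COUP-TFII, had 22.7 and 24.1 CPM against 38.4 and 36.5 CPM in SIGM5 and 34.5 and 34.8 FPKM against 22.7 and 25.7 FPKM in K01. The groups of both genes separated in both lines, in opposite directions. CCNB1, the cyclin of mitotic entry, changed by -0.42 ± 0.10 in SIGM5 and 0.29 ± 0.06 in K01, and BMF, a pro-apoptotic BCL2-family member, by -0.64 ± 0.12 and 0.70 ± 0.21. In K01, BMF had 2.01 and 1.79 FPKM with TETi76, against 0.595 and 1.007 FPKM with DMSO. Among the K01 libraries, only those given TETi76 and DMSO replicate 2 reached the filter of 1 FPKM for BMF. The filter thus favoured its K01 rise, which is no separate evidence. The calls in both lines were lost without a library for FN1 (highest adjusted p = 0.401 in SIGM5 and 0.0719 in K01), NR2F2 (0.164 and 0.0529), CCNB1 (0.549 and 0.0642) and BMF (0.227 and 0.215). Without either SIGM5 TETi76 library, 3 metallothioneins fell in SIGM5.

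**Figure D3:**
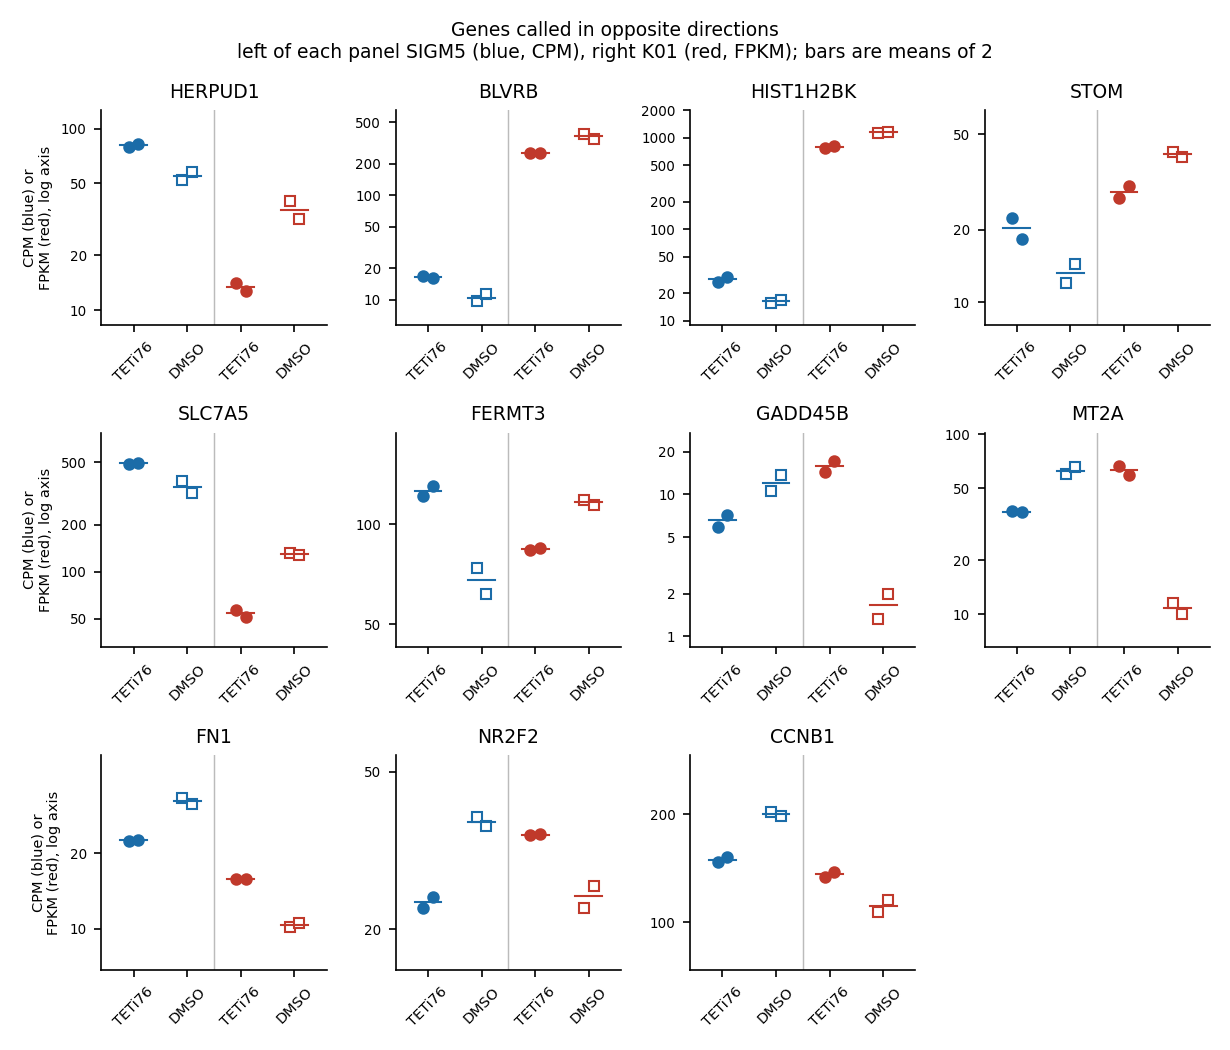
Levels on log axes of the 11 genes named by rule that changed in opposite directions, CPM in SIGM5 (blue, left of each panel) and FPKM in K01 (red, right), with each TETi76 library as a filled circle, each DMSO library as an open square and bars at the mean of 2. HERPUD1 to FERMT3 are higher with TETi76 in SIGM5 and lower in K01, and GADD45B to CCNB1 show the reverse.

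ATF4 targets fell in K01 and few of them were called in SIGM5. Of the list, 37 of 39 fell and 1, SLC3A2, rose in K01, whereas 2 of 38, ASNS and ATF5, fell and 1, SLC7A5, rose in SIGM5. At an unadjusted edgeR p under 0.05, 13 of the 38 were lower and 3 higher in SIGM5. A crossed replicate block, added after seeing the data, called 8 lower and 2 higher there, and those 8 were also lower in K01. The median response of the 37 genes tested in both was -0.16 in SIGM5 and -1.45 in K01. The difference was called at 32 of the 37, in each with the SIGM5 response the higher, against 7.12% of all genes tested in both. In the contrast with ascorbate, which uses other K01 libraries, 31 fell and 3 rose, with a median of -0.78, and SLC7A11 stood at 0.12 (adjusted p = 0.532). The number lower in K01 ran from 33 to 36 without a K01 library, and in SIGM5 from 0 without TETi76 replicate 1 to 6 without DMSO replicate 2.

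CHAC1, which degrades glutathione and is a sensitive ATF4 target, had 1.63 and 1.43 CPM with TETi76, against 1.93 and 2.42 CPM with DMSO, in SIGM5. In K01 it had 2.16 and 1.56 FPKM with TETi76, against 42.7 and 36.7 FPKM with DMSO, the largest of the named falls in K01 (-3.83 ± 0.17, adjusted p = 1.20e-06). PSAT1, an enzyme of serine synthesis, had 149 and 136 CPM against 145 and 174 CPM in SIGM5 and 19.5 and 20.9 FPKM against 155 and 156 FPKM in K01. PSAT1 libraries overlapped by treatment in SIGM5 and stood far apart in K01, with a difference of 2.72 ± 0.14 (adjusted p = 2.50e-14). DDIT4, an inhibitor of mTOR signalling, had 14.3 and 16.3 CPM against 19.9 and 21.4 CPM in SIGM5 and 46.8 and 46.5 FPKM against 437 and 441 FPKM in K01. DDIT4 was lower with TETi76 in every library of both lines, but the SIGM5 change of -0.43 ± 0.14 did not pass the test (adjusted p = 0.096). ATF4 itself changed by -0.30 ± 0.11 in SIGM5 (adjusted p = 0.149) and -1.21 ± 0.06 in K01, and TRIB3, a pseudokinase that feeds back on ATF4, by 0.25 ± 0.11 (adjusted p = 0.225) and -1.77 ± 0.09.

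Members of several branches of the programme fell in K01. Cystathionine-handling CTH and CBS changed by -2.40 ± 0.14 and -1.77 ± 0.09 in K01, against 0.14 ± 0.34 and -0.20 ± 0.11 in SIGM5. The mitochondrial folate enzyme MTHFD2 changed by -1.97 ± 0.08 in K01, against 0.09 ± 0.11 in SIGM5. Of the tRNA synthetases, CARS and WARS changed by -1.66 ± 0.07 and -1.45 ± 0.06 in K01, against -0.20 ± 0.12 and 0.03 ± 0.10 in SIGM5. For these 5 the difference was called and the SIGM5 change was not. ASNS, asparagine synthetase, fell in both, to 21.3 and 20.7 CPM, against 28.2 and 31.1 CPM with DMSO, in SIGM5 and to 59.2 and 56.8 FPKM, against 183 and 191 FPKM, in K01. ATF5, a factor related to ATF4, changed by -0.61 ± 0.15 in SIGM5 and -1.70 ± 0.16 in K01. The SIGM5 calls of ASNS and ATF5 were lost without a library (highest adjusted p = 0.42 and 0.763), while both K01 calls held. The C/EBP-ATF letters occurred in 22 of 477 promoters of genes that fell in K01 with a called difference and no SIGM5 call (4.61%), in 3 of 312 of those that rose there (0.962%), in 4 of 47 of those lower in both lines (8.51%), in 1.59% of promoters of genes tested in both and in 3.67% of all RefSeq promoters.

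**Figure D4:**
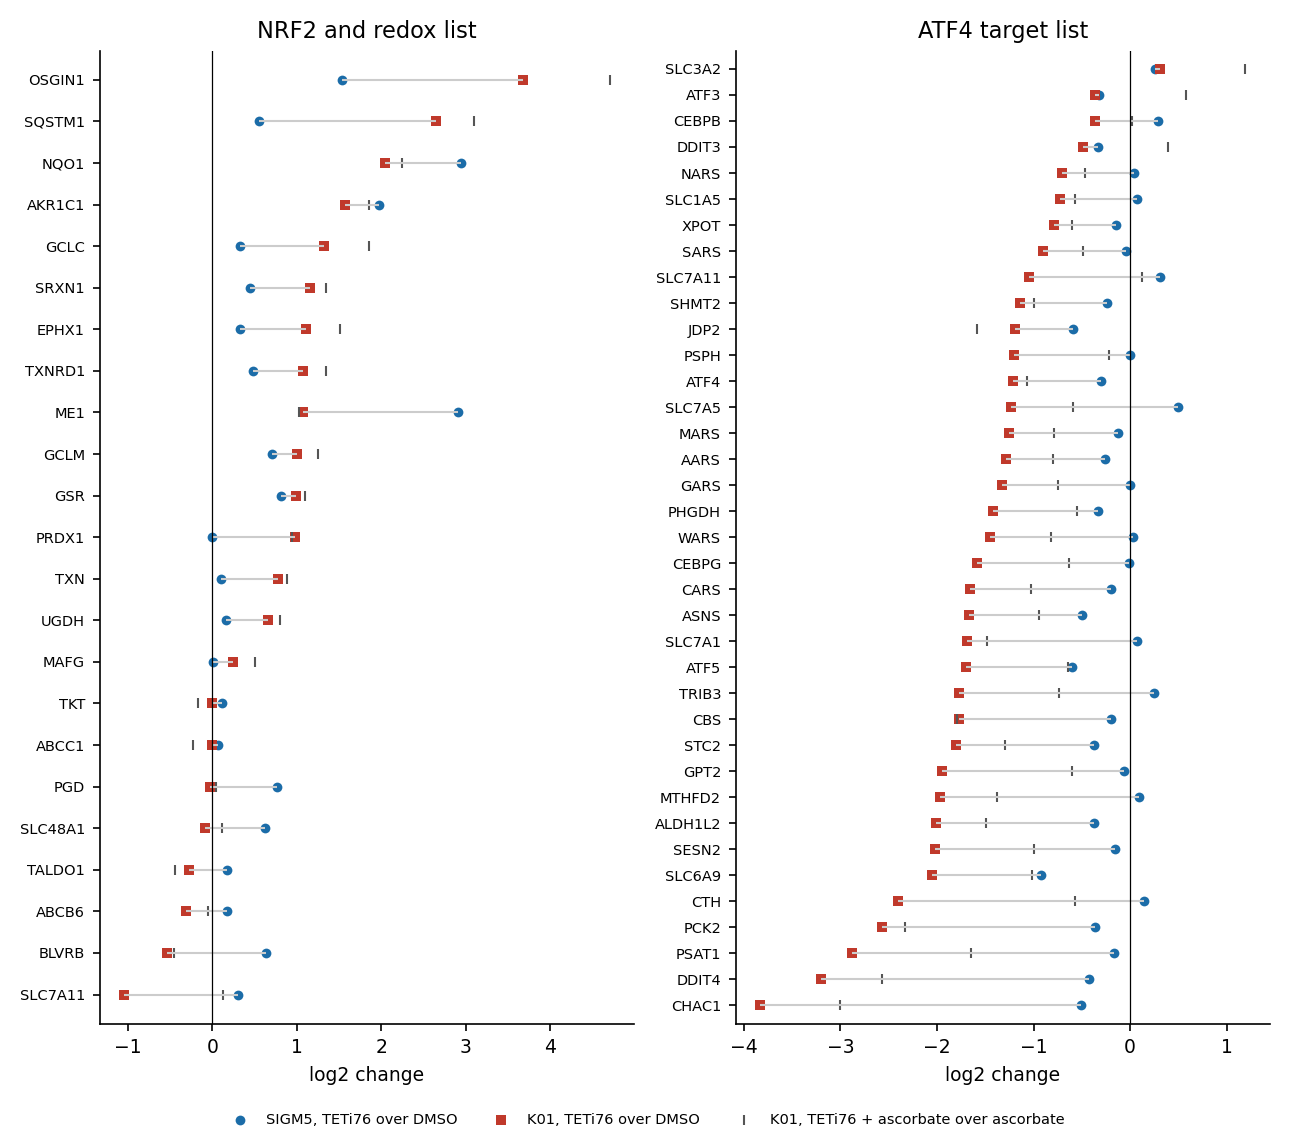
Log2 change (horizontal axis) of NRF2-list genes (left, 1 of the 24 tested in both lines not drawn) and ATF4-list genes (right, all 37 tested in both), with SIGM5 as a blue circle, K01 as a red square and K01 with TETi76 plus ascorbate over ascorbate as a dark grey tick. NRF2-list genes lie mostly right of 0 in both lines (medians 0.46 in SIGM5 and 0.88 in K01), and ATF4-list genes lie near 0 in SIGM5 (median -0.16) and left of it in K01 (median -1.45).

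In all, 943 genes were called in K01 with a called difference and no SIGM5 call, 380 of them higher and 563 lower. CHAC1, PSAT1 and DDIT4, described above, are among them. A further 1342 were called in K01 without a called difference. The named genes that rose were UPP1, SLC7A8, ID3 and SERTAD1. UPP1, uridine phosphorylase, had 1.04 and 0.912 CPM with TETi76, against 1.45 and 0.465 CPM with DMSO, in SIGM5, and 17.8 and 11.1 FPKM against 0.784 and 1.83 FPKM in K01. SERTAD1, a transcriptional coregulator, had 5.02 and 6.69 CPM against 5.04 and 6.0 CPM in SIGM5 and 24.2 and 24.4 FPKM against 4.46 and 5.31 FPKM in K01. Both overlapped by treatment in SIGM5 and separated in K01. The light-chain amino acid transporter SLC7A8 rose by 1.17 ± 0.10 in K01 and stood at -1.07 ± 0.68 in SIGM5 (adjusted p = 0.469), with under 1 CPM in every SIGM5 library. There it had 0.209 and 0.261 CPM with TETi76, against 0.537 and 0.465 CPM with DMSO. SLC7A8 passed the SIGM5 filter through the DMSO libraries alone, which favoured a negative SIGM5 value, and its difference rests partly on that value. ID3, a relative of ID2, rose by 1.22 ± 0.23 in K01, against -0.96 ± 0.40 in SIGM5 (adjusted p = 0.212). PLCD1, a phospholipase C, fell to 7.80 and 8.96 FPKM, against 56.0 and 56.3 FPKM with DMSO, in K01, and stood at 2.76 and 2.78 CPM against 2.15 and 2.46 CPM in SIGM5. The differences of UPP1 and SLC7A8 were lost without a library (highest adjusted p = 0.122 and 0.258).

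DNA replication genes fell in 26 of 39 cases in K01 and in 1, MCM7, in SIGM5. The median response was -0.12 in SIGM5 and -0.47 in K01, and the difference was called at 14 of 39, each with the SIGM5 response the higher. CDC45, a helicase cofactor, changed by 0.00 ± 0.11 in SIGM5 and -1.35 ± 0.08 in K01, and POLD1, the catalytic subunit of DNA polymerase delta, by -0.24 ± 0.12 and -1.17 ± 0.09. Without a K01 library 18 to 23 fell in K01. Nuclear genes of oxidative phosphorylation fell in 18 of 34 cases in K01 and in 1 of 29, NDUFB8, in SIGM5, with the difference called at 5 of 29. Proteasome genes rose in 12 of 29 cases in K01, by 0.29 (PSMA7) to 0.62 (PSMB6), and the difference was called at 2, PSMB6 and PSMB7. In SIGM5 edgeR called 0 of the 29 and DESeq2 0, with 2 at an unadjusted p under 0.05. Without a K01 library 7 or 8 proteasome genes rose there, against 22 under quantile normalization and 19 in the contrast with ascorbate.

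Heat shock genes rose in 9 of 22 cases in K01 and 1 of 21 in SIGM5. HSPA1B, an inducible HSP70, had 5.48 and 3.21 CPM with TETi76, against 2.20 and 1.91 CPM with DMSO, in SIGM5, and 61.9 and 67.4 FPKM against 12.8 and 12.4 FPKM in K01. Its near-identical copy HSPA1A was listed at 0 in all 4 SIGM5 libraries and had 92.8 and 96.7 FPKM against 18.3 and 14.1 FPKM in K01, so reads of the 2 genes cannot be told apart. The SIGM5 call of HSPA1B was lost without a library (highest adjusted p = 0.838). The co-chaperones DNAJB1 and BAG3 rose in K01, by 1.10 ± 0.07 and 1.07 ± 0.13, against 0.34 ± 0.11 and 0.34 ± 0.12 in SIGM5, with called differences. The mitochondrial chaperones HSPD1 and HSPA9 fell in K01 (-0.31 ± 0.05 and -0.73 ± 0.05), against 0.04 ± 0.09 and 0.06 ± 0.09 in SIGM5.

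Fewer genes were called in SIGM5 alone. With a called difference and no K01 call there were 58, of which 39 rose and 19 fell, and 105 more were called in SIGM5 without a called difference. ADAM8, a metalloprotease of myeloid cells, had 21.2 and 23.6 CPM with TETi76, against 5.79 and 5.25 CPM with DMSO, in SIGM5, and 2.11 and 1.94 FPKM against 2.21 and 1.41 FPKM in K01. IL10RA, the ligand-binding chain of the interleukin-10 receptor, had 32.5 and 34.2 CPM against 13.6 and 11.1 CPM in SIGM5 and 3.59 and 3.25 FPKM against 4.87 and 4.78 FPKM in K01. The rise in SIGM5 was far outside the spread of the libraries for both, and the K01 libraries of ADAM8 overlapped. The differences were 1.90 ± 0.27 for ADAM8 (adjusted p = 6.65e-05) and 1.84 ± 0.28 for IL10RA (adjusted p = 0.00033). C3, the central complement component, rose by 1.50 ± 0.19 in SIGM5, against -0.12 ± 0.27 in K01 at under 1 FPKM in each library, and its difference was lost with a pseudocount of 0.1 (adjusted p = 0.144). HIP1, a clathrin adaptor, rose by 1.55 ± 0.17 in SIGM5, against 0.14 ± 0.17 in K01. CPXM1, a carboxypeptidase-like secreted protein, fell in SIGM5 (-1.09 ± 0.17), as did the tubulin TUBA1A (-0.60 ± 0.11), the mitotic kinesin KIF18B (-0.48 ± 0.12) and the haem-binding protein HEBP2 (-0.52 ± 0.11). CPXM1 had 1.27 and 1.03 FPKM with TETi76, against 0.737 and 0.683 FPKM with DMSO, in K01. Among the K01 libraries, only ones given TETi76 reached the filter of 1 FPKM for CPXM1. The filter thus favoured a positive K01 value, on which its difference partly rests. In K01 KIF18B stood at 0.33 ± 0.11 (adjusted p = 0.0526). It was called higher there under median-ratio scaling (adjusted p = 0.0478), quantile normalization (0.0439) and a stricter filter (0.0494), which would make it an opposed gene, and its difference was not called with the ascorbate libraries (adjusted p = 0.137). The SIGM5 calls of TUBA1A, KIF18B and HEBP2 were lost without a library, at a highest adjusted p of 0.127, 0.494 and 0.188, as was the difference of TUBA1A (0.137), and the difference of CPXM1 was lost with a pseudocount of 0.1 (adjusted p = 0.0998).

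Interferon-stimulated genes passed in 11 of 32 cases in SIGM5, all lower with TETi76, and in 2 of 16 in K01, ISG15 and IRF7, both higher. Over all genes tested, 1.54% were called lower in SIGM5 and 9.61% higher in K01. The K01 count is near that share and is no result about the list. Of these genes, 14 were tested in both lines, and at 4 of them the difference was called. USP18, a negative regulator of interferon signalling, changed by -1.57 ± 0.33 in SIGM5 and -0.06 ± 0.31 in K01 (difference -1.51 ± 0.45, adjusted p = 0.0278). IFIT3, an antiviral effector, changed by -1.96 ± 0.35 and 0.19 ± 0.25 (difference -2.15 ± 0.43, adjusted p = 0.000813). ISG15, a ubiquitin-like modifier, stood at -0.28 ± 0.16 in SIGM5 (adjusted p = 0.417) and rose by 0.73 ± 0.15 in K01. MX2, an antiviral GTPase, had 5.14 and 5.21 CPM with TETi76, against 11.6 and 15.0 CPM with DMSO, in SIGM5, and was among the 18 list members tested in SIGM5 that were under the K01 filter. Without either SIGM5 TETi76 library 8 and 6 members fell in SIGM5, and without a K01 library 0 or 1 rose in K01.

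Monocyte and granulocyte genes moved both ways in SIGM5, where 10 of 27 myelomonocytic markers rose and 5 fell. The list was chosen with earlier results of these data known. Those that rose include ADAM8 and SGK1, described above, so the count partly restates genes already named. The integrins ITGAM and ITGAX rose by 1.36 ± 0.14 and 1.73 ± 0.22, and the NADPH oxidase subunits CYBB and NCF1 by 0.98 ± 0.09 and 1.01 ± 0.12. The granule proteins CTSG, AZU1, ELANE and MPO fell (-1.28 ± 0.17, -0.59 ± 0.11, -0.47 ± 0.10 and -0.36 ± 0.10). The summed level of the list was 25035 to 25837 CPM with TETi76, against 27310.4 to 27619.7 CPM with DMSO. In bulk samples, fewer cells of a type and less RNA per cell cannot be told apart. In K01 the erythroid list fell in 16 of 26 cases and rose in 1, TFRC, with a summed level of 9290.3 to 9600.7 FPKM with TETi76, against 10312 to 11667 FPKM with DMSO. The globin-locus activator KLF1 changed by -1.22 ± 0.12 in K01, and in SIGM5 edgeR called 0 of 8 erythroid genes and DESeq2 0, with 1 at an unadjusted p under 0.05. Stromal and epithelial genes rose in 3 of 5 cases in K01, KRT8, KRT18 and VIM, and summed to 1586 to 1621 FPKM with TETi76, against 700.4 to 706 FPKM with DMSO. Their part in the differences between the lines was not tested.

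Genes that passed the filter of a single line cannot be classed as shared or opposed, and some of them have low values in the other line. Of those called in SIGM5, 98 that rose and 48 that fell were in both tables but under the K01 filter, and of those called in K01, 94 that rose and 170 that fell were under the SIGM5 filter. IL1B, an inflammatory cytokine, had 31.2 and 39.1 CPM with TETi76, against 10.5 and 12.2 CPM with DMSO, in SIGM5, and 0 or 0.526 FPKM in the K01 libraries. LSP1, a leucocyte actin-binding protein, rose by 1.50 ± 0.12 in SIGM5 and was listed at 0 in all 4 K01 libraries. WNT7B, a secreted Wnt ligand, fell by 1.57 ± 0.16 in SIGM5. In K01, the organic anion transporter SLCO2B1 and the repressor SNAI1 rose by 1.68 ± 0.11 and 1.50 ± 0.14. INHBE, an activin subunit on the ATF4 list, fell to 1.0 and 2.17 FPKM, against 24.6 and 24.5 FPKM with DMSO, in K01, and PKLR, the erythroid pyruvate kinase, to 17.5 and 13.9 FPKM, against 60.6 and 51.4 FPKM. HIST3H2BB fell too (-2.45 ± 0.50), a call lost without a library (highest adjusted p = 0.0611). PKM, the other pyruvate kinase gene, rose in both lines.

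**Figure D5:**
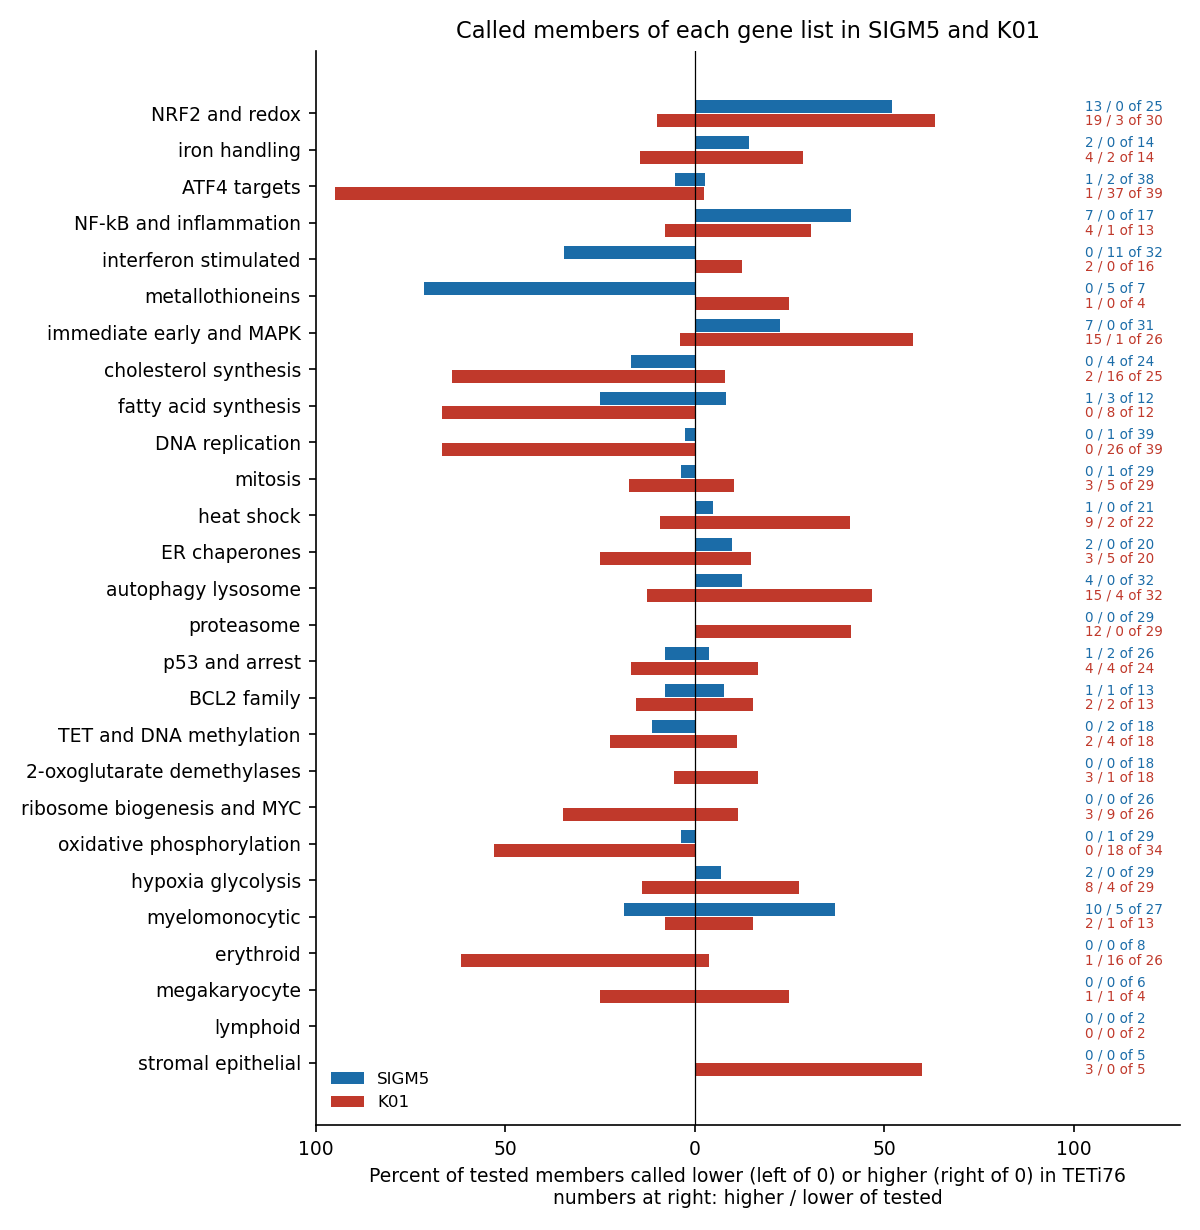
Percent of the tested members of each gene list that were called lower (bars left of 0) or higher (bars right of 0) with TETi76 in SIGM5 (blue) and K01 (red), with the counts higher and lower of those tested at the right. The ATF4 bars reach far left in K01, where 37 of 39 fell, and stay short in SIGM5, and the NRF2 bars reach right in both lines.

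The K01 direction of the shared and opposed genes was compared with the second K01 contrast, TETi76 plus ascorbate against ascorbate, whose 4 libraries none of the classes used, although its fit shares the estimate of spread. In that contrast 12.9% of 12534 genes were higher and 17.8% lower. The sign was the same as in the K01 contrast without ascorbate at 72 of the 75 genes higher in both (63 called) and at 55 of the 55 lower in both (50 called). It was the same at 17 of 18 genes that rose in SIGM5 and fell in K01 (12 called) and at 8 of 9 with the reverse pattern (7 called). Over all 9742 genes tested in both it was the same at 7424 (76.2%). Among genes called in K01 with a called difference and no SIGM5 call, it was the same at 901 of 943 (95.55%). High agreement is thus not particular to the shared or opposed genes. For HERPUD1 the values were 17.1 and 18.7 FPKM with TETi76 and ascorbate, against 27.8 and 27.8 FPKM with ascorbate, and for MT2A 64.8 and 66.3 FPKM against 10.6 and 7.97 FPKM. The exception among the genes lower in SIGM5 and higher in K01 was CCNB1, at -0.06 (adjusted p = 0.485). TNFAIP3 was the exception among the 18, at 0.04 (adjusted p = 0.856), and its difference from SIGM5 was then not called (adjusted p = 0.076). CCL2 was at 0.39 (adjusted p = 0.383) there, and EGR1 at 0.25 (adjusted p = 0.0671).

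The TET genes themselves were not called in either line, although TET1 was under some other settings. TET1 had 3.22 and 2.35 CPM with TETi76, against 4.62 and 5.07 CPM with DMSO, in SIGM5, and 4.16 and 4.25 FPKM against 5.80 and 5.93 FPKM in K01, and both lines had their treated libraries below their vehicle libraries (adjusted p = 0.0707 and 0.0553). TET1 was called lower in SIGM5 without the filter on low counts (adjusted p = 0.0323) and with a crossed replicate block (adjusted p = 0.0148), and in K01 in the contrast with ascorbate (-0.61, adjusted p = 0.0072). TET2 stood at 0.06 ± 0.12 in SIGM5 and -0.16 ± 0.22 in K01 (adjusted p = 0.863 and 0.651), and TET3 at 0.04 ± 0.11 and -0.20 ± 0.15 (adjusted p = 0.892 and 0.398). TETi76 acts on the proteins, so these transcript levels do not measure whether the enzymes were inhibited. In the other lists, p53 targets were called in 3 of 26 cases in SIGM5, 1 higher and 2 lower. In K01 they were called in 8 of 24, 4 higher and 4 lower. Of 29 mitosis genes, 1 was called in SIGM5, lower, and 8 in K01, 3 higher and 5 lower. Their median response was -0.24 in SIGM5 and -0.05 in K01, and in SIGM5 16 were lower and 0 higher at an unadjusted edgeR p under 0.05. Over all genes tested, 4.13% were called in SIGM5 and 23.3% in K01. Ribosome and MYC genes were called in 0 of 26 cases in SIGM5 by edgeR and by DESeq2, with 3 at an unadjusted p under 0.05, and in 12 of 26 in K01. Other oxoglutarate-dependent demethylases were called in 0 of 18 in SIGM5 by both tools, with 2 at an unadjusted p under 0.05. In K01 4 of 18 were called, 3 higher and 1 lower, a share near the 23.3% of all genes tested there. DNMT3A, a DNA methyltransferase, fell in SIGM5 (-0.48 ± 0.12) and stood at -0.38 ± 0.16 in K01 (adjusted p = 0.111). DNMT1, the maintenance methyltransferase, stood at -0.10 ± 0.10 in SIGM5 (adjusted p = 0.684) and fell in K01 (-0.48 ± 0.06).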

How the data were processed

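Polyadenylated RNA was sequenced from 14 libraries, of which 8 are compared here. Per the submitters' processing notes, STAR, edgeR 3.24.3, limma 3.38.3 and build hg19 were used, with roles and counting rules not given in the sources used here. The deposited SIGM5 table holds raw counts, 19196 rows. The K562 table the authors deposited holds FPKM values, a unit read from the values since no header states it, and gives no depth. From it, 2272 short RNA rows and 26 rows with numbers as names were left out of 26171, since 2 small RNAs alone made up 29.6% to 36.4% of the summed FPKM. The assumed units of the design were met.

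SIGM5 counts were filtered with filterByExpr, TMM-scaled and tested with edgeR 4.0.16 (quasi-likelihood, robust, two-sided). K01 contrasts came from a single limma 3.58.1 fit (trend, robust) of 5 K562 groups, 10 libraries, on log2(FPKM + 1), over genes with at least 1 FPKM in at least 2 libraries. The difference, SIGM5 minus K01, used both standard errors with Satterthwaite degrees of freedom. P-values were Benjamini-Hochberg adjusted over all genes of each test, threshold 0.05. R 4.3.3, Python 3.11.15 and pandas 2.3.3 were used, and the tests were tested on simulated data. Replicates of a group correlated at 0.976 or more. Same-numbered libraries showed no positive pairing, with correlations of deviations of -0.235 in SIGM5 and -0.008 in K01. The negative SIGM5 value means that TETi76 replicate 1 deviated more like DMSO replicate 2. A replicate block crossed in that way called 1291 genes in SIGM5, against 468 without a block.

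The gene classes, lists and tests were chosen with earlier results of these data known. Genes named by rule averaged 10 CPM (SIGM5) or 10 FPKM (K01) or more in their higher group: the 8 with the largest smaller change per shared direction, 6 per opposed pattern, 4 per line and direction with a called difference, 3 per line and direction under the other filter, and up to 4 per gene list. Some genes that met the rule, or belong to a list, are not reported here. Motifs were searched on both strands. In all, 22 alternatives were tried, with DESeq2 1.42.0 among them. Genes with near-identical copies (ferritins, metallothioneins, histones, HSP70, tubulins) are uncertain.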

Additional observations from a re-analysis of the deposited data

Results flagged for a closer look

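Genes are given here because the test of the difference between the lines passed, as the SIGM5 response minus the K01 response on the log2 scale, with positive values for a higher response in SIGM5. Among the genes with a shared direction, the difference was 0.89 for NQO1, 0.75 for STAR, 0.44 for WDR34 and 1.09 for ATF5, and it was -1.38 for ID2 and -0.57 for FTL. The difference of ATF5 was 0.0394 with the K01 ascorbate libraries (adjusted p = 0.93). The difference of WDR34 had an adjusted p of 0.0478 and was not called under DESeq2 (adjusted p = 0.0762) or quantile normalization (adjusted p = 0.147).

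Among the genes higher in SIGM5 and lower in K01 it was 1.91 for HERPUD1, 1.74 for SLC7A5, 1.36 for FERMT3, 1.32 for HIST1H2BK, 1.18 for BLVRB and 1.13 for STOM. Among those lower in SIGM5 and higher in K01 it was -3.56 for GADD45B, -3.2 for MT2A, -1.18 for NR2F2, -1.09 for FN1 and -0.71 for CCNB1.

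Among the genes called in SIGM5 it was 1.9 for ADAM8, 1.84 for IL10RA, 1.62 for C3 and 1.41 for HIP1, which rose there, and -1.42 for CPXM1, -1.15 for TUBA1A, -0.81 for KIF18B and -0.72 for HEBP2, which fell there. Among the genes called in K01 it was -2.68 for UPP1, -2.24 for SLC7A8, -2.18 for ID3 and -2.03 for SERTAD1, which rose there, and 3.33 for CHAC1, 2.87 for PLCD1, 2.78 for DDIT4 and 2.72 for PSAT1, which fell there. SLC7A8 lost the difference under DESeq2 (adjusted p = 0.171) and passed the SIGM5 filter through the DMSO libraries alone. Among the K01 libraries, CPXM1 reached 1 FPKM only with TETi76. Groups of 2 libraries are too small for a check of single libraries that stand apart.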

How the results depend on the processing

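For the named genes, 2649 of the recomputed values kept their direction and their side of the threshold, 183 kept their direction and lost the call, 9 gained it and 15 changed sign, over all alternatives. Without 1 library, the number called ran from 110 to 1206 in SIGM5 and from 1669 to 1791 in K01, and the called differences from 522 to 1484. The shared genes then ran from 28 to 297, the opposed from 3 to 64, the genes called in SIGM5 with a called difference from 15 to 187, those in K01 from 474 to 986, and r across genes from 0.214 to 0.259. Of the 130 shared genes, 28 and 45 were still in the class without SIGM5 TETi76 replicate 1 and 2, and 117 and 126 without SIGM5 DMSO replicate 1 and 2. A group left with 1 library was assumed to vary like the others.

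With the K01 ascorbate libraries in place of the K01 pair, 1863 differences were called and 1572 genes were called in K01 with a called difference. Without the K562 filter 150 genes were called in SIGM5 with a called difference. Without the SIGM5 filter 738 genes were called in SIGM5, 95 of them with a called difference and no K01 call, and r was 0.112. A crossed replicate block in SIGM5, added after seeing the data, gave 1291 called genes, 334 shared, 65 opposed and 141 called in SIGM5 with a called difference. The K562 fit of 4 libraries gave 18 opposed genes. With the replicate block 444 genes were called in SIGM5 and 2756 in K01, 115 were shared, 23 opposed, 1032 differed, 64 and 819 were called in SIGM5 and K01 with a called difference, and r was 0.265. DESeq2 gave 357 called genes in SIGM5, 115 shared and 23 opposed, with no adjusted p for ME1.

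Changes of sign in K01 with the ascorbate libraries were -0.0618 for CCNB1, 0.609 for C3, -0.104 for HIP1, -0.143 for KIF18B, -0.0775 for HEBP2, 0.0439 for TNFAIP3, 0.202 for TET2 and 0.00758 for TET3. Without single libraries the sign changed in K01 for ADAM8 (-0.0866 to 0.328) and C3 (-0.249 to 0.0115), and in SIGM5 for SERTAD1 (-0.140 to 0.275), UPP1 (-0.572 to 1.07) and TET3 (-0.0101 to 0.0921), as log2 changes. The cause was not tested. Scaling moved the median of all genes by less than 0.1. The count of low SIGM5 genes limits ME1, UPP1 and SLC7A8.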
